A study of Mus musculus with 12 samples.

Results

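Collagens are the triple-helical proteins that give the heart's matrix its tensile strength, and each chain is made in the endoplasmic reticulum by cells such as fibroblasts and endothelial cells. There, prolyl and lysyl hydroxylases modify the chain, chaperones help it fold, and 3 chains wind into a helix; outside the cell, proteinases trim fibril-forming chains and lysyl oxidases cross-link them. Fibrillar collagens I, III and V form the fibres between heart muscle cells, whereas collagen IV forms the sheet-like basement membrane around muscle cells and capillaries. The genes for these chains and enzymes were followed in mouse hearts after lipopolysaccharide (LPS), the endotoxin used to model sepsis. They were picked by symbol from the GENCODE annotation of GRCm38, with no measured value used: every collagen alpha chain, the lysyl oxidases (Lox, Loxl), the lysyl hydroxylases (Plod), the prolyl 4-hydroxylase subunits (P4ha, P4hb), and Serpinh1, Pcolce, Bmp1, P3h1 and Crtap. The rule picked 61 of 55418 annotated genes, of which 33 were listed in all 12 libraries and were tested, among 11509 tested genes in all.

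Total RNA of whole heart, depleted of ribosomal RNA, was sequenced from 4 mice in each of 3 groups, all of strain C57BL/6 with genotype WT. The LPS+XJDHT mice had LPS at 10 mg/kg and XJDHT (Xijiao Dihuang decoction, a herbal preparation) at 50 mg/kg per day, the LPS mice had the same LPS dose and saline, and the Control mice had saline for both treatments. Treatment lasted 3 days in every group, so no other time after LPS was sampled, and no group had XJDHT without LPS. The labels give no age or sex, and nothing says whether mice of a group shared a litter, so p-values measure the spread between these 12 hearts. Libraries held 73.8 to 77.8 M fragments, and the values are FPKM, which correct for transcript length and library size, so that levels can be set side by side between genes. Defining heart muscle genes were abundant everywhere, with the 9 cardiomyocyte markers summing to 6788 to 10571 FPKM in LPS+XJDHT hearts, 8189.8 to 10111 FPKM in LPS hearts and 17073 to 18980.2 FPKM in Control hearts. In bulk tissue, fewer cells of a type and less RNA per cell cannot be told apart, and FPKM are shares of a library, not amounts per heart. LPS+XJDHT 2 stood apart in 4 Y-linked genes (Ddx3y, Eif2s3y, Kdm5d and Uty), which summed to 0.205 FPKM there and to 20.4 to 61.9 FPKM in the other 11 hearts; without it, none of the 33 genes was called in LPS+XJDHT against LPS, as with it.

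Of the 61 genes, 33 were listed in all libraries: 17 collagen chains and 16 enzymes, chaperones and other processing proteins. The 22 listed in none were Col2a1, Col4a5, Col6a4, Col6a5, Col7a1, Col9a1, Col9a2, Col9a3, Col10a1, Col11a1, Col11a2, Col13a1, Col17a1, Col19a1, Col20a1, Col22a1, Col24a1, Col25a1, Col26a1, Col27a1, Col28a1 and P4ha3. The files list a transcript when it reaches a low level in the groups they were made for, and 5 chains (Col4a3, Col4a6, Col6a6, Col8a2 and Col12a1) were listed in the Control and LPS libraries alone. Col6a6, a chain of collagen VI, had 0.03, 0.04, 0.13 and 0.12 FPKM in LPS hearts, against 0.74, 0.71, 0.73 and 1.26 FPKM in Control hearts. Col8a2 had 0.06, 0.14, 0.15 and 0.02 FPKM in LPS hearts, against 0.79, 0.83, 0.61 and 0.91 FPKM in Control hearts. Neither gene's groups overlapped, but such chains may have been listed through the group where they were high, so no test was made. Col14a1, a collagen that sits on fibril surfaces, was listed through different transcripts in the 2 sets of files and was not compared.

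LPS against Control asked how 3 days after endotoxin bore on the collagen program. Of the 33 genes, 14 rose, 6 fell and 13 were not called (limma, Benjamini-Hochberg adjusted p under 0.05). These are 42.4% and 18.2% of the genes, where 26.6% of all tested genes rose and 12% fell. The median log2 fold change was 0.26 over the 33 genes and 0.16 over all tested genes. The groups did not overlap for 13 genes higher and 6 lower after LPS, against a background of 25.3% and 12.1% of all genes. When libraries were scaled by median ratios, which moved the median of all genes to 0.01, 10 genes rose and 8 fell, 30.3% and 24.2%, where 18.6% and 18.4% of all genes did. Col1a1, Col3a1, Col5a2 and P3h1 then missed the threshold, at adjusted p of 0.051, 0.072, 0.061 and 0.054, and Col6a2 and Plod1 passed it as lower, at 0.0076 and 0.042. Of the 20 calls, 12 held under every alternative that could be run on them, apart from the rule asking for a 2-fold change, which left 4 genes higher and 1 lower; Col4a4, one of the 12, could not be tested in every setting. Col4a4, Col23a1 and Loxl4 reached the expression filter through 1 condition, which favoured a difference in that direction. Of the other 30 genes, 12 rose and 5 fell.

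**Figure D1:**
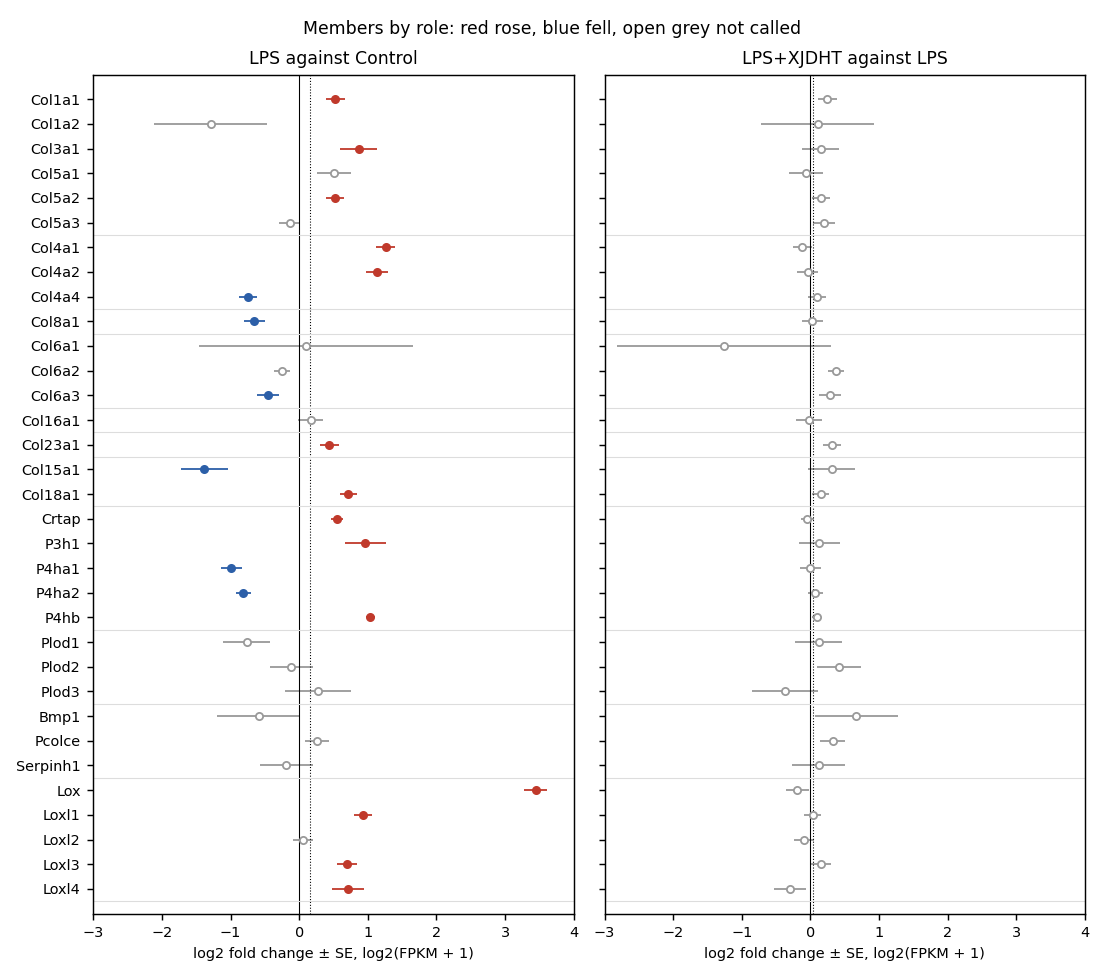
Log2 fold change of FPKM + 1 with its SE for each of the 33 genes, grouped by role, in LPS against Control (left) and LPS+XJDHT against LPS (right); filled points passed the test, open points did not, and the dotted line is the median of all tested genes. Lox stands furthest right at 3.45 in LPS against Control, and no point is filled in LPS+XJDHT against LPS.

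The collagen IV pair Col4a1 and Col4a2, whose chains join in 1 heterotrimer, is encoded head to head on chromosome 8 (GRCm38), Col4a1 at chr8:11198423-11312826 on the minus strand and Col4a2 at chr8:11312805-11449287 on the plus strand. The annotated genes overlap by 22 bases at their starts, so the bases before each gene's start lie inside the other gene. Their RefSeq promoter windows (GRCm38.p6), from 250 bases before the start to 50 after, share 78 bases and are shown because the pair moved together; capitals mark CCAAT and GGGCGG on either strand, the CCAAT box and GC box. The Col4a1 window is chr8:11312777-11313076 on the minus strand and the Col4a2 window is chr8:11312555-11312854 on the plus strand.
Col4a1: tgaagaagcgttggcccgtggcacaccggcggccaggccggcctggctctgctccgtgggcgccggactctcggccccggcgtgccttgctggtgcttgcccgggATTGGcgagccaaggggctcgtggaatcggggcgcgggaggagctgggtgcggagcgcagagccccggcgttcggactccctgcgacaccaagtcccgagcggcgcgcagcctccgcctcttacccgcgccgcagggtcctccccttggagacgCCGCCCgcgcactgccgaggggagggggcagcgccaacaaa
Col4a2: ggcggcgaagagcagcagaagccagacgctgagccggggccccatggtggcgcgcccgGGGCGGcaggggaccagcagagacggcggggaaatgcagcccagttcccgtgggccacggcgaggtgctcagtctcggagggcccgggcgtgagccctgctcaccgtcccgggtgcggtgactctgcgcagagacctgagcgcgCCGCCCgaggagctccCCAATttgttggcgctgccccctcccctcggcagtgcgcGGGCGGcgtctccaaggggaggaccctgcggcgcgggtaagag
The Col4a1 window held 2 matches and the Col4a2 window 4; the GC box of Col4a1 lies in the shared bases and counts in both. Among the 25 tested genes with a RefSeq promoter, 36.0% held CCAAT and 76.0% held GGGCGG, where 37.4% and 35.7% of all 32851 promoters did. The 25 are 1 promoter for each gene that passed the expression filter, whereas the 32851 are not limited to tested genes. The shares are therefore not of like sets. A match is a run of letters and not a shown binding site.

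Col4a1 had 224, 216, 213 and 213 FPKM in LPS+XJDHT hearts, 313, 265, 185 and 197 FPKM in LPS hearts and 97.0, 97.6, 91.1 and 104 FPKM in Control hearts. Col4a2 had 164, 179.9, 146 and 153 FPKM in LPS+XJDHT hearts, 222, 189, 129.7 and 137 FPKM in LPS hearts and 68.2, 70.1, 83.9 and 77.0 FPKM in Control hearts. Every LPS heart lay above every Control heart for both chains, and LPS 1 and LPS 2 were the highest hearts of the study. In LPS against Control, Col4a1 rose by 1.26 ± 0.14 on the log2 scale of FPKM + 1 (SE, limma adjusted p = 4.8e-05) and Col4a2 by 1.14 ± 0.16 (adjusted p = 0.00020). These were the 2 most abundant of the 33 genes in both Control and LPS hearts. Their ratio, Col4a1 over Col4a2, was 1.35 ± 0.11 in LPS+XJDHT hearts, 1.42 ± 0.02 in LPS hearts and 1.31 ± 0.15 in Control hearts (SD, n = 4 each). Together they made up 52.8% to 59.5% of the summed collagen FPKM in LPS+XJDHT hearts, 49.6% to 72.7% in LPS hearts and 37.5% to 46.3% in Control hearts. The summed FPKM includes Col1a2 and Col6a1, whose listed values varied widely within groups and may not be RNA levels. Col4a1 itself includes Col4a1-208, a transcript not annotated as protein-coding. It was listed at up to 192 FPKM in hearts given LPS and near 0 in Control hearts. These shares, and their separation between groups, depend on all of these listed values.

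Part of the FPKM behind the Col4a1 difference was listed for a transcript that is not annotated as protein-coding. How the authors' tool divided fragments between overlapping transcripts cannot be checked here. Transcript values throughout, zeros included, are therefore values as listed and may not be RNA levels. This holds for Col4a1, Col1a2 and Col6a1, and also for P4ha1, P4ha2, Bmp1, Pcolce, Serpinh1 and Col15a1, among others. Col4a1-208, annotated for nonsense-mediated decay (a route that destroys RNAs with an early stop), was listed at 0, 154, 166 and 162 FPKM in LPS+XJDHT hearts, at 0, 192, 0 and 144 FPKM in LPS hearts and at 0 in all 4 Control hearts. The full-length coding transcript Col4a1-201 had 223, 61.0, 44.9 and 48.7 FPKM in LPS+XJDHT hearts, 311, 71.0, 184 and 51.1 FPKM in LPS hearts and 96.4, 96.8, 90.7 and 104 FPKM in Control hearts. Where one transcript was high the other was low within a heart, and both are near full length, at 6487 and 6615 bases. With protein-coding transcripts alone, the Col4a1 difference was 0.33 in LPS against Control (adjusted p = 0.69), so the gene's call needs the FPKM listed for Col4a1-208. Col4a2-201, the coding transcript, rose by 1.13 ± 0.16 (adjusted p = 0.00049) on its own. Col4a4, a chain of the kidney-type collagen IV network, differed by -0.75 ± 0.13 (adjusted p = 0.0012), with 0.463, 0.271, 0.734 and 0.640 FPKM in LPS hearts against 1.33, 1.29, 1.83 and 1.77 FPKM in Control hearts. It reached the filter in Control hearts alone, which fixed the direction of this call.

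**Figure D2:**
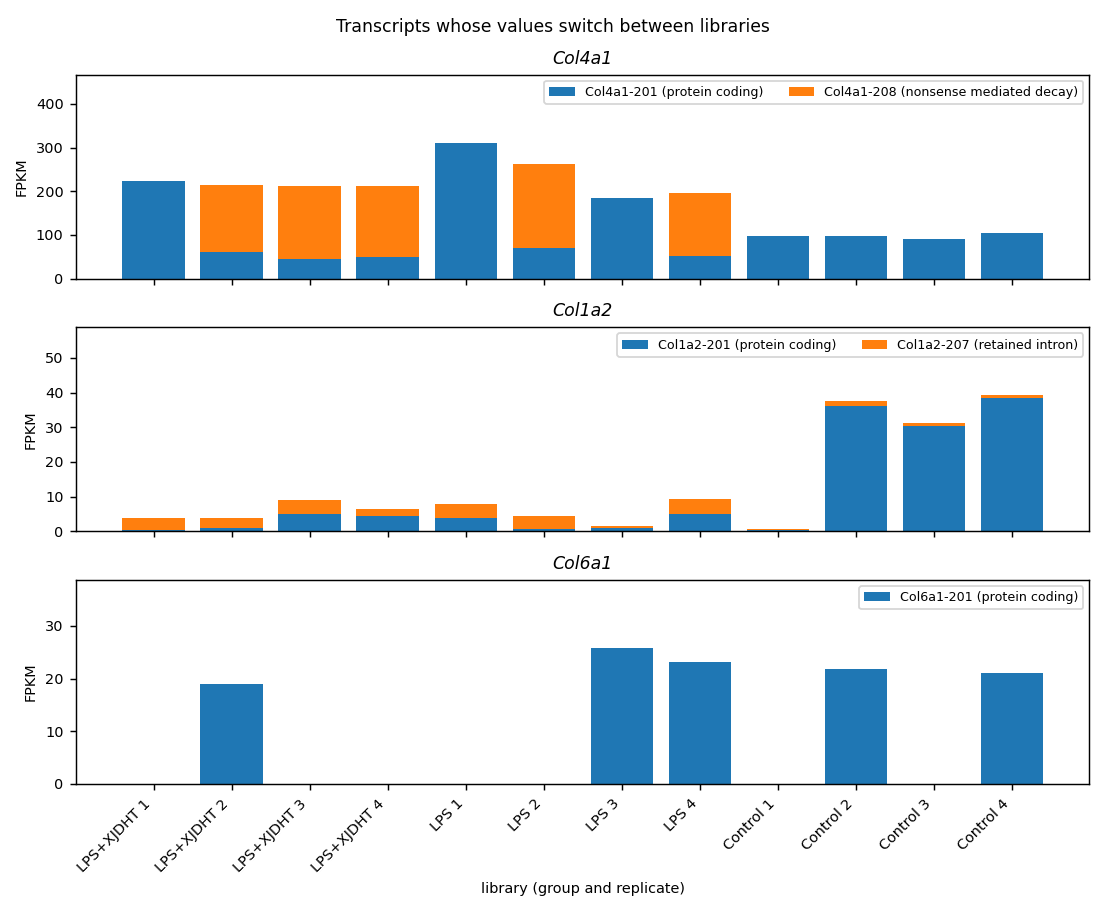
FPKM per library, stacked by transcript, of Col4a1, Col1a2 and Col6a1, with LPS+XJDHT, LPS and Control libraries from left to right. Col4a1-208 is listed at 0 in all 4 Control hearts and at 144 and 192 FPKM in 2 LPS hearts, where Col4a1-201 is low.

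The collagens XV and XVIII, which link basement membranes to the matrix beside them, moved in opposite directions. Col15a1 had 12.3, 9.41, 11.6 and 15.9 FPKM in LPS+XJDHT hearts, 3.27, 11.6, 13.1 and 15.5 FPKM in LPS hearts and 26.0, 24.8, 26.9 and 28.7 FPKM in Control hearts. Col18a1, whose end fragment is endostatin, had 7.82, 6.94, 7.49 and 7.55 FPKM in LPS+XJDHT hearts, 6.64, 7.13, 5.69 and 7.08 FPKM in LPS hearts and 3.63, 3.54, 2.86 and 4.65 FPKM in Control hearts. Neither gene's LPS and Control groups overlapped, and LPS 1 was the lowest heart for Col15a1. In LPS against Control, Col15a1 fell by 1.38 ± 0.34 (limma adjusted p = 0.0078) and Col18a1 rose by 0.72 ± 0.12 (adjusted p = 0.00088).

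Col8a1, a short-chain network collagen made by vessel cells, fell by 0.66 ± 0.15 in LPS against Control (adjusted p = 0.0052). It had 6.58, 5.80, 6.49 and 7.59 FPKM in LPS+XJDHT hearts, 8.87, 5.43, 4.93 and 7.09 FPKM in LPS hearts and 11.6, 10.9, 10.2 and 10.3 FPKM in Control hearts, with no overlap between LPS and Control. Col23a1, a transmembrane collagen, averaged 0.934 ± 0.262 FPKM in LPS hearts and 0.423 ± 0.102 FPKM in Control hearts (SD, n = 4 each), a difference of 0.44 ± 0.14 (adjusted p = 0.026). It reached the filter through the hearts given LPS alone, which favoured the direction of this call. Leaving out Control 1, 2 or 3, or LPS 1 or 2, ended that call, at adjusted p up to 0.073. Col16a1, which binds fibril surfaces, averaged 1.30 ± 0.40 FPKM in LPS hearts and 1.04 ± 0.28 FPKM in Control hearts and was not called (0.17, adjusted p = 0.51). With every annotated transcript that those 8 libraries list, it was lower in LPS hearts, by -0.55 on the log2 scale (adjusted p = 0.018).

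Among the fibrillar collagens, Col1a1, Col3a1 and Col5a2 rose. Col3a1, the chain of the fine type III fibres, had 146, 116, 163 and 133 FPKM in LPS+XJDHT hearts, 129, 68.1, 154 and 177 FPKM in LPS hearts and 70.5, 97.0, 52.1 and 59.7 FPKM in Control hearts. Col1a1, the main chain of type I fibres, had 43.4, 38.7, 45.5 and 37.3 FPKM in LPS+XJDHT hearts, 38.7, 24.8, 38.3 and 38.5 FPKM in LPS hearts and 24.4, 24.6, 21.8 and 23.9 FPKM in Control hearts. LPS 2 was the lowest LPS heart for both chains: it lay within the Control range for Col3a1 and just above it for Col1a1. The rise in LPS against Control was 0.86 ± 0.27 for Col3a1 (limma adjusted p = 0.026) and 0.53 ± 0.14 for Col1a1 (adjusted p = 0.0098). Leaving out Control 3 or 4, or LPS 1, 3 or 4, ended the Col3a1 call, at adjusted p up to 0.074. Fitting the LPS and Control libraries alone, with the shared transcripts or with all that they list, ended it too.

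Col5a2, which joins type V chains that start fibrils, had 17.4, 14.2, 19.8 and 16.9 FPKM in LPS+XJDHT hearts, 15.3, 11.8, 16.5 and 17.5 FPKM in LPS hearts and 10.7, 11.1, 9.31 and 9.80 FPKM in Control hearts. It rose by 0.52 ± 0.13 in LPS against Control (adjusted p = 0.0088), and again LPS 2 stood nearest to the Control hearts. Its partner Col5a1 averaged 7.37 ± 2.82 FPKM in LPS hearts and 4.65 ± 0.88 FPKM in Control hearts and was not called (0.51 ± 0.25, adjusted p = 0.13); without LPS 3 it passed, at 0.0054. Col5a3 averaged 5.29 ± 1.42 FPKM in LPS hearts and 5.83 ± 0.66 FPKM in Control hearts (adjusted p = 0.51).

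Col1a2, the second chain of type I collagen, stood apart from its partner and was not called. It had 4.95, 5.23, 10.8 and 7.91 FPKM in LPS+XJDHT hearts, 9.37, 5.48, 2.81 and 10.2 FPKM in LPS hearts and 1.01, 37.8, 31.7 and 39.7 FPKM in Control hearts. Control 1 was the lowest of all 12 hearts and the other Control hearts were the highest, so the difference of -1.29 ± 0.82 in LPS against Control had an adjusted p of 0.24. Without Control 1 it was -2.35, at adjusted p = 0.00081. Col1a1 and Col1a2 chains are used in a fixed proportion, yet Col1a1 over Col1a2 FPKM ran from 3.76 to 13.6 in LPS hearts and from 0.602 to 24.2 in Control hearts. The full-length coding transcript Col1a2-201 had 3.78, 0.71, 0.85 and 5.05 FPKM in LPS hearts, against 0.37, 36.0, 30.4 and 38.3 FPKM in Control hearts. Col1a2-207, a transcript that keeps an intron, rose by 1.09 ± 0.35 (adjusted p = 0.042).

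Collagen VI, a beaded filament around muscle cells, is built from Col6a1, Col6a2 and Col6a3. Col6a3 had 4.94, 4.97, 6.69 and 6.28 FPKM in LPS+XJDHT hearts, 6.52, 3.96, 3.62 and 4.15 FPKM in LPS hearts and 5.80, 6.19, 7.11 and 6.93 FPKM in Control hearts. It fell by 0.46 ± 0.16 in LPS against Control (limma adjusted p = 0.041) although LPS 1 lay within the Control range. Leaving out any Control heart, LPS 2, 3 or 4, or LPS+XJDHT 4 ended that call, at adjusted p up to 0.098. So did fitting the LPS and Control libraries alone, with the shared transcripts or with all that they list. Col6a2 had 29.7, 33.1, 33.4 and 28.4 FPKM in LPS+XJDHT hearts, 26.1, 18.0, 27.4 and 24.7 FPKM in LPS hearts and 28.5, 29.6, 27.6 and 28.4 FPKM in Control hearts. Each LPS heart lay below each Control heart, but the difference of -0.25 ± 0.12 was not called (adjusted p = 0.11). Col6a1 was listed at 0 in 7 of the 12 hearts and at 19.0 to 25.8 FPKM in the others, with zeros in all 3 groups, and was not called (adjusted p = 0.97).

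**Figure D3:**
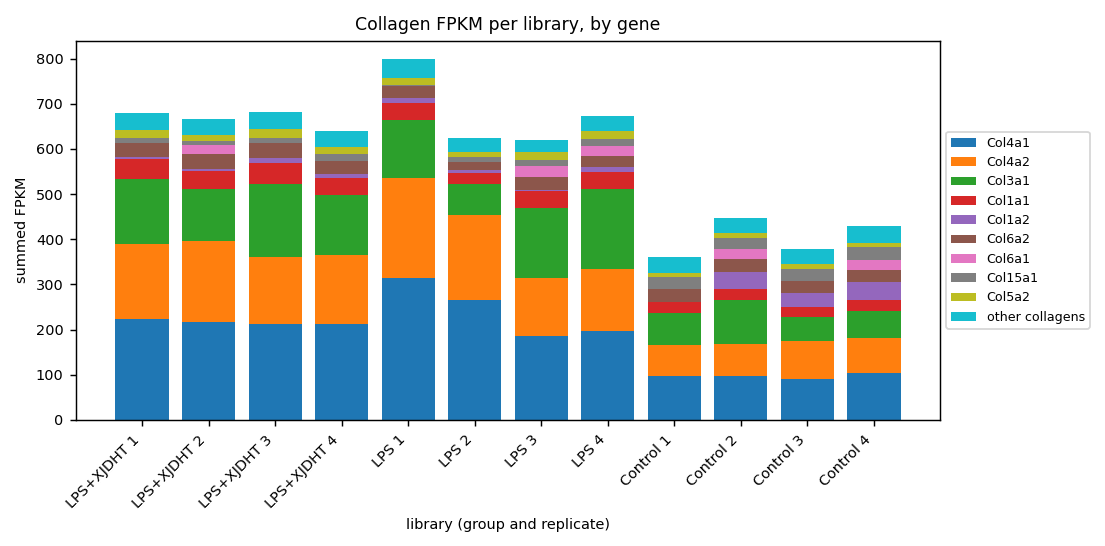
Summed FPKM of the 17 tested collagens in each library, split by gene, for LPS+XJDHT, LPS and Control hearts from left to right. The totals run from 640.0 to 681 in LPS+XJDHT hearts, from 619 to 799.5 in LPS hearts and from 359.6 to 447 in Control hearts, and Col4a1 and Col4a2 are the lowest layers of each bar. The totals include Col1a2 and Col6a1, whose listed values may not be RNA levels.

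Summed over the 17 chains, collagen FPKM was 666 ± 18.9 in LPS+XJDHT hearts, 679 ± 83.9 in LPS hearts and 404 ± 41.5 in Control hearts (SD, n = 4 each). The basement membrane chains made up 378 ± 17.4, 409.8 ± 104 and 174 ± 7.44 FPKM of this in the same groups, and the fibrillar chains 218 ± 28.1, 202 ± 56.9 and 142 ± 28.2 FPKM. Basement membrane sums did not overlap between LPS and Control hearts, at 315 to 535 against 167 to 183 FPKM. They include Col4a1-208, listed at 144 and 192 FPKM in 2 LPS hearts and near 0 in Control hearts. The size of this gap therefore depends on values that may not be RNA levels. Fibrillar sums overlapped, at 122 to 256 FPKM in LPS hearts and 116 to 179.9 FPKM in Control hearts, with LPS 2 the lowest LPS heart.

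Prolyl 4-hydroxylase, the enzyme whose hydroxyproline holds the triple helix together, is a tetramer of catalytic alpha chains (P4ha1, P4ha2) and the beta chain P4hb, which is also protein disulfide isomerase and so has work beyond collagen. The subunits moved in opposite directions. P4hb had 149, 162, 142 and 139 FPKM in LPS+XJDHT hearts, 144, 140.4, 131 and 139 FPKM in LPS hearts and 67.3, 70.6, 63.0 and 67.3 FPKM in Control hearts. P4ha1 had 10.4, 9.89, 8.05 and 9.77 FPKM in LPS+XJDHT hearts, 9.71, 11.1, 7.27 and 10.4 FPKM in LPS hearts and 24.1, 15.8, 18.8 and 21.8 FPKM in Control hearts. P4ha2 had 11.9, 12.3, 12.5 and 11.8 FPKM in LPS+XJDHT hearts, 11.9, 13.6, 9.07 and 11.6 FPKM in LPS hearts and 21.4, 19.8, 21.7 and 20.8 FPKM in Control hearts. For all 3 subunits no LPS heart overlapped a Control heart. In LPS against Control, P4hb rose by 1.04 ± 0.07 (limma adjusted p = 1.4e-06), P4ha1 fell by 0.99 ± 0.15 (adjusted p = 0.00042) and P4ha2 fell by 0.81 ± 0.11 (adjusted p = 0.00015). P4hb over the summed alpha chains was 6.83 ± 0.36 in LPS+XJDHT hearts, 6.66 ± 0.99 in LPS hearts and 1.65 ± 0.23 in Control hearts (SD, n = 4 each).

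The promoters of these subunits are shown because the alpha chains are known targets of hypoxia-inducible factor (HIF), whose core site is read as ACGTG or GCGTG; capitals mark these letters on either strand. They are RefSeq windows of GRCm38.p6 running from 250 bases before the start to 50 after it. The windows are chr11:120573204-120573503 on the minus strand for P4hb, chr10:59323046-59323345 on the plus strand for P4ha1 and chr11:54100674-54100973 on the plus strand for P4ha2.
P4hb: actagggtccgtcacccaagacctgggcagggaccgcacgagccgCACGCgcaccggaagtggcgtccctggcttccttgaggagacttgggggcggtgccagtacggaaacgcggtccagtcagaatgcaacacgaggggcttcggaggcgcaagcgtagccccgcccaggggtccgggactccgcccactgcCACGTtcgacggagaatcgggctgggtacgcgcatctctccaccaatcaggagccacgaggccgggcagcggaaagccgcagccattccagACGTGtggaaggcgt
P4ha1: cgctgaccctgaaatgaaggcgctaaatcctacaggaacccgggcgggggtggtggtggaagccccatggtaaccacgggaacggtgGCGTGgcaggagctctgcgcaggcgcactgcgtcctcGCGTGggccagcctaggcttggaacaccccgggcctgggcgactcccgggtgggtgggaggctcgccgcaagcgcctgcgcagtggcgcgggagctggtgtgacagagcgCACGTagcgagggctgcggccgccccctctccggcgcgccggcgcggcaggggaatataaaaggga
P4ha2: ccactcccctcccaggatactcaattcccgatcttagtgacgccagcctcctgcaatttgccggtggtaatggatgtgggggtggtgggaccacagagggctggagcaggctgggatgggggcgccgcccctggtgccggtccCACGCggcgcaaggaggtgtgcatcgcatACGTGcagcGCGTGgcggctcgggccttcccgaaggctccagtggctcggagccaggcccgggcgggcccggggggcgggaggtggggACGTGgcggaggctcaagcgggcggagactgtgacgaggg
The windows held 3, 3 and 4 matches. A match is a run of letters, and any part of HIF in these changes was not tested. ACGTG stood in 32.0% and GCGTG in 56.0% of the 25 promoters, against 19.6% and 32.4% of all promoters, which are not limited to tested genes. The endoplasmic reticulum stress response element and an NF-kB motif were each searched as an exact pattern, so other forms of these sites were not counted. Neither pattern stood in any of the 25, and 0.119% and 1.63% of all promoters held them. Patterns this rare would mostly be absent from any 25 promoters, so their absence here says nothing about these genes. The P4ha2 window starts from P4ha2-202, the coding transcript that begins at base 54100924. P4ha2-202 fell by 1.39 ± 0.36 in LPS against Control (limma adjusted p = 0.017). P4ha2-201, a coding transcript that begins inside the window at base 54100963, was not called (-0.42 ± 0.18, limma adjusted p = 0.11). In LPS 1, P4ha2-202 was listed at 0.69 FPKM and P4ha2-201 at 5.98 FPKM, and how fragments were divided between them cannot be checked. The same holds for P4ha1. In Control hearts, its coding transcript P4ha1-201 had 18.1, 11.1, 1.99 and 2.20 FPKM, and P4ha1-203 had 4.23, 2.67, 16.8 and 19.6 FPKM. Neither was called in LPS against Control (limma adjusted p = 0.34 and 0.67).

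**Figure D4:**
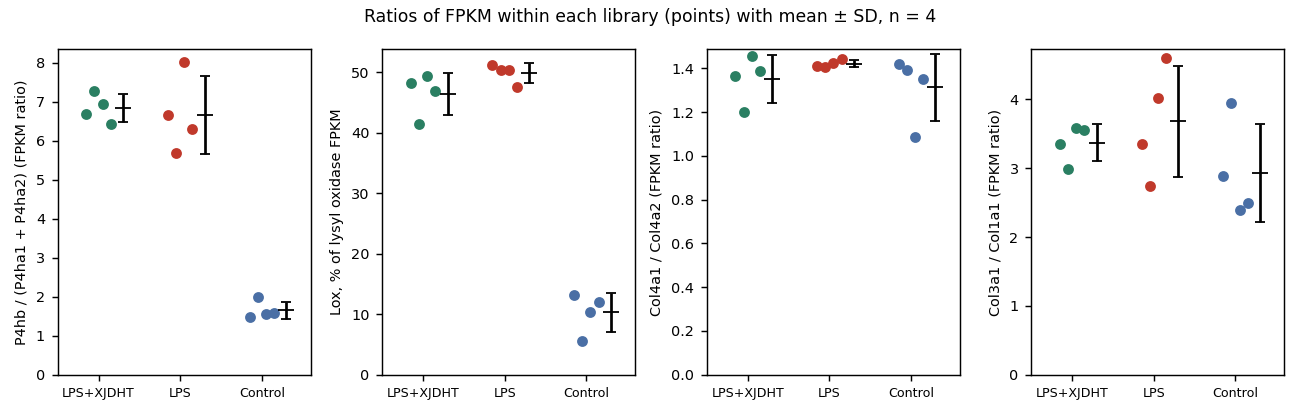
Ratios and shares of FPKM per library, with LPS+XJDHT, LPS and Control hearts from left to right. P4hb over its alpha chains lies between 5.68 and 8.01 in LPS hearts and between 1.48 and 1.98 in Control hearts, and Lox makes up 47.6% to 51.3% of lysyl oxidase FPKM in LPS hearts against 5.66% to 13.1% in Control hearts.

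P3h1 and Crtap form the complex that 3-hydroxylates proline in collagen I. Crtap had 16.8, 16.1, 17.1 and 15.7 FPKM in LPS+XJDHT hearts, 19.2, 16.6, 15.2 and 17.0 FPKM in LPS hearts and 11.9, 10.6, 10.4 and 12.02 FPKM in Control hearts. P3h1, the catalytic partner, had 7.93, 7.38, 7.10 and 7.25 FPKM in LPS+XJDHT hearts, 7.55, 7.23, 5.38 and 6.78 FPKM in LPS hearts and 0.765, 3.62, 4.38 and 4.50 FPKM in Control hearts. No LPS heart overlapped a Control heart for either gene, and Control 1 was far below the other Control hearts for P3h1. In LPS against Control, Crtap rose by 0.55 ± 0.09 (adjusted p = 0.00064) and P3h1 by 0.96 ± 0.30 (adjusted p = 0.025). The P3h1 call was lost without LPS 1 or LPS 2, at adjusted p up to 0.060. It was also lost when the LPS and Control libraries were fitted alone, with the shared transcripts or with all that they list.

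The lysyl hydroxylases, which prepare lysines for cross-linking and for sugar attachment, were not called. Plod1 averaged 15.2 ± 6.20 FPKM in LPS hearts and 25.0 ± 5.85 FPKM in Control hearts, a difference of -0.77 ± 0.34 (adjusted p = 0.098). Plod2 averaged 3.21 ± 0.79 FPKM in LPS hearts and 3.58 ± 0.91 FPKM in Control hearts, and Plod3 averaged 6.56 ± 1.63 and 5.88 ± 3.84 FPKM in those groups. Serpinh1, the chaperone HSP47 that binds folded procollagen, had 58.8, 67.4, 59.0 and 65.4 FPKM in LPS+XJDHT hearts, 73.5, 83.9, 24.5 and 71.5 FPKM in LPS hearts and 105, 55.3, 35.3 and 89.2 FPKM in Control hearts. Its LPS and Control values overlapped widely, and the difference of -0.19 ± 0.39 (95% interval -1.04 to 0.67) was not called.

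Bmp1, the proteinase that cuts the C-terminal propeptide, averaged 4.02 ± 3.23 FPKM in LPS hearts and 5.59 ± 0.82 FPKM in Control hearts (-0.59 ± 0.60, adjusted p = 0.47). Its transcript Bmp1-205, annotated for nonsense-mediated decay, fell by 2.25 ± 0.56 in LPS against Control (limma adjusted p = 0.013). Bmp1-206, annotated likewise, was listed at 2.92, 1.13, 0.68 and 0 FPKM in LPS hearts and at 0 in every Control heart. In LPS+XJDHT hearts Bmp1-205 ran from 0.0031 to 8.14 FPKM. Like those of Col4a1, these listed values may not be RNA levels. Pcolce, the enhancer of that cleavage, had 43.3, 30.9, 40.1 and 41.7 FPKM in LPS+XJDHT hearts, 35.0, 24.5, 29.7 and 35.0 FPKM in LPS hearts and 35.0, 27.2, 20.3 and 21.8 FPKM in Control hearts. LPS and Control hearts overlapped for Pcolce (0.26 ± 0.18, adjusted p = 0.28).

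Lox, which oxidises lysines so that collagen and elastin chains cross-link, differed most of the 33 genes. It had 40.0, 27.0, 37.0 and 32.6 FPKM in LPS+XJDHT hearts, 48.5, 36.3, 34.0 and 37.0 FPKM in LPS hearts and 3.41, 1.85, 2.42 and 3.02 FPKM in Control hearts. Every heart given LPS lay above every Control heart, and Lox was 6th of the 33 genes by mean FPKM in LPS hearts and 28th in Control hearts. It rose by 3.45 ± 0.17 on the log2 scale in LPS against Control (limma adjusted p = 1.7e-07). Loxl1, known for its part in elastic fibres, had 29.0, 24.1, 25.2 and 23.1 FPKM in LPS+XJDHT hearts, 29.7, 23.4, 20.9 and 25.5 FPKM in LPS hearts and 11.8, 15.1, 11.2 and 12.1 FPKM in Control hearts. It rose by 0.93 ± 0.13 (adjusted p = 0.00018), again with no overlap between LPS and Control.

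Loxl3 averaged 3.14 ± 0.67 FPKM in LPS hearts and 1.54 ± 0.39 FPKM in Control hearts and rose by 0.70 ± 0.15 (adjusted p = 0.0028). Loxl4 averaged 1.15 ± 0.26 FPKM in LPS hearts and 0.311 ± 0.136 FPKM in Control hearts, with a difference of 0.71 ± 0.23 (adjusted p = 0.030), a direction fixed by the filter, which it passed through the hearts given LPS. That call was lost without Control 3, Control 4 or LPS 1, with a pseudocount of 0.1 FPKM and in limma-voom, at adjusted p up to 0.29. Loxl2 averaged 9.94 ± 1.24 FPKM in LPS hearts and 9.71 ± 2.63 FPKM in Control hearts and was not called (95% interval -0.27 to 0.38). Summed over the 5 enzymes, lysyl oxidase FPKM was 73.1 ± 7.72 in LPS+XJDHT hearts, 78.1 ± 11.9 in LPS hearts and 26.8 ± 4.16 in Control hearts. Lox gave 46.5% ± 3.47 of this in LPS+XJDHT hearts, 49.9% ± 1.60 in LPS hearts and 10.3% ± 3.29 in Control hearts (SD, n = 4 each).

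**Figure D5:**
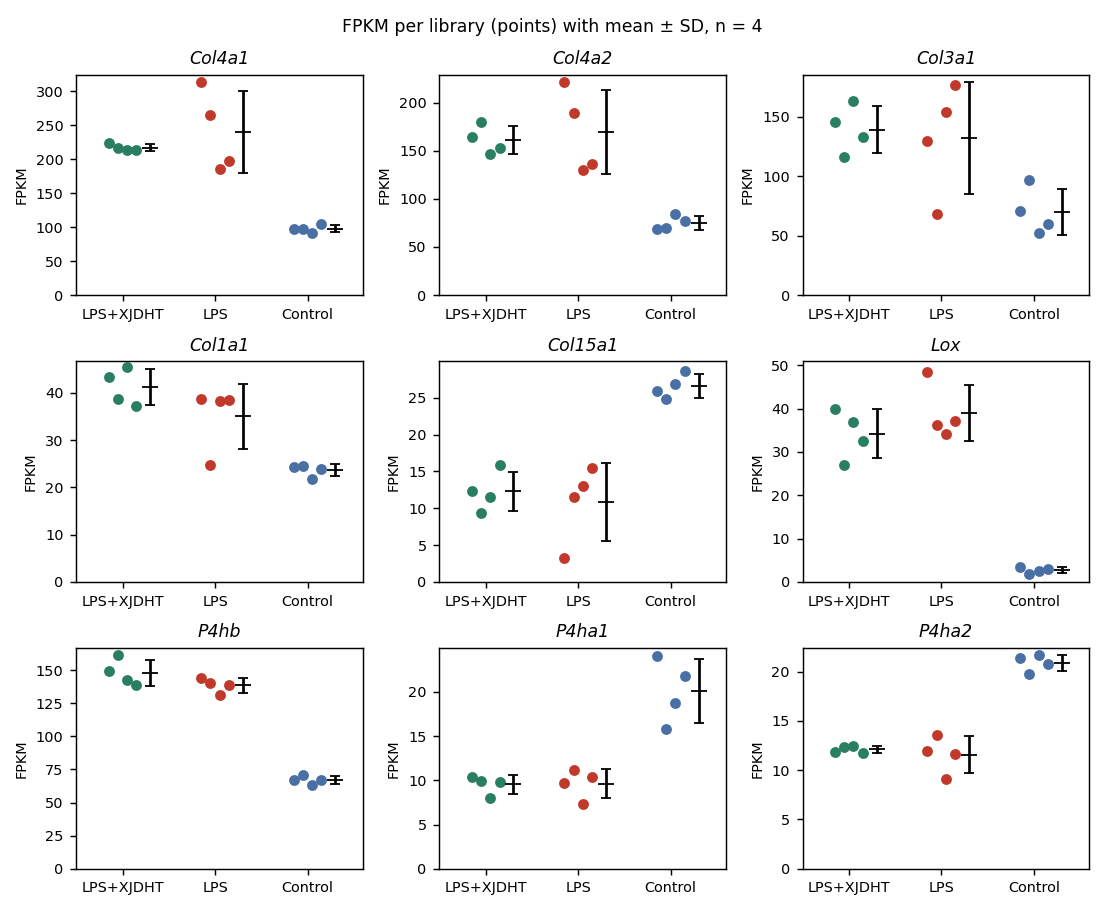
FPKM per library, with mean and SD (n = 4), of 9 genes in LPS+XJDHT, LPS and Control hearts, each axis starting at 0. Lox lies at 27.0 to 48.5 FPKM in every heart given LPS and at 1.85 to 3.41 FPKM in Control hearts, while Col3a1 in LPS 2 lies within the Control range.

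LPS+XJDHT against LPS asked whether the decoction moved the same genes. None of the 33 was called, where 13 of 11509 tested genes were, all lower, a background of 0.113%; limma-voom on recovered fragments also called 0 of the 33. At an unadjusted p under 0.05 there were 2, Col6a2 and Col23a1, and the smallest adjusted p was 0.96. Col6a2 had no overlap between the groups and was higher in LPS+XJDHT hearts by 0.38 ± 0.12 (unadjusted p = 0.0089), where 1.95% of all genes were higher and 0.86% lower with no overlap. Col23a1 averaged 1.40 ± 0.30 FPKM in LPS+XJDHT hearts and 0.934 ± 0.262 FPKM in LPS hearts (unadjusted p = 0.041). The intervals of the differences say what sizes the data still allow. For Lox the 95% interval was -0.55 to 0.18 on the log2 scale, for Col4a1 -0.42 to 0.19, for Col4a2 -0.38 to 0.30 and for P4hb -0.06 to 0.24. Wider intervals were those of Col3a1, at -0.45 to 0.74, Col15a1, at -0.44 to 1.06, and Serpinh1, at -0.73 to 0.97.

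LPS+XJDHT against Control, which shares its Control hearts with the first comparison, called 14 of the 33 genes higher and 5 lower, where 28.5% of all genes rose and 10.7% fell. Without Col4a4, Col23a1 and Loxl4, which passed the filter through 1 condition, 13 of 30 were higher and 4 lower. The groups did not overlap for 13 genes higher and 5 lower, against 30.2% and 11.9% of all genes. Higher were Col1a1, Col3a1, Col4a1, Col4a2, Col5a2, Col18a1, Col23a1, P4hb, P3h1, Crtap, Pcolce, Lox, Loxl1 and Loxl3, and lower were Col4a4, Col8a1, Col15a1, P4ha1 and P4ha2. Lox rose by 3.26 ± 0.17 (limma adjusted p = 2.4e-07), P4hb by 1.13 ± 0.07 (adjusted p = 7.2e-07) and Col4a1 by 1.14 ± 0.14 (adjusted p = 9.6e-05). With protein-coding transcripts alone the Col4a1 difference was -0.37 (adjusted p = 0.66). Pcolce rose by 0.58 ± 0.18 (adjusted p = 0.022), a call lost without Control 3, Control 4, LPS+XJDHT 1 or LPS+XJDHT 4, at adjusted p up to 0.066, after median scaling, at 0.16, and in limma-voom, at 0.079. Col15a1 fell by 1.07 ± 0.34 (adjusted p = 0.028), and leaving out Control 1, 3 or 4 or LPS+XJDHT 1, 2 or 3 gave adjusted p up to 0.070. The Col15a1 call was also lost in limma-voom.

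At transcript level, 56 transcripts of these genes were tested in LPS against Control, and 12 rose and 5 fell, 21.4% and 8.93%, where 17.3% and 8.26% of all 18644 tested transcripts did. Col4a4-201, among the 5 that fell, reached at most 0.734 FPKM in LPS hearts and 0.720 FPKM in LPS+XJDHT hearts. It passed the filter through Control hearts alone, which fixed its direction, so it adds no support to the count. In LPS+XJDHT against LPS 0 of the 56 were called in limma, 6 had an unadjusted p under 0.05, and 0.0107% of all transcripts rose and 0.0858% fell.

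The proteins that work with collagen in the same pathway were read from lists of genes by role. Over all tested genes, 26.6% rose and 12% fell in LPS against Control and the median log2 fold change was 0.16. Of 17 tested synthesis partners, 9 rose and 3 fell (52.9% and 17.6%), with a median of 0.41. Colgalt2, among those that fell, reached at most 0.797 FPKM in LPS hearts and 0.747 FPKM in LPS+XJDHT hearts. It passed the filter through Control hearts alone, which fixed its direction. Tmem38b, an endoplasmic reticulum cation channel needed for collagen modification, averaged 43.0 ± 4.24 FPKM in LPS hearts and 11.6 ± 0.98 FPKM in Control hearts and rose by 1.81 (limma adjusted p = 1.1e-06). Fkbp10, a prolyl isomerase and collagen chaperone, averaged 23.8 ± 4.03 FPKM in LPS hearts and 7.82 ± 0.73 FPKM in Control hearts and rose by 1.48 (adjusted p = 6.1e-06). Ppib, the cyclophilin that binds P3h1 and Crtap, averaged 87.2 ± 5.92 FPKM in LPS hearts and 50.9 ± 6.26 FPKM in Control hearts and rose by 0.77 (adjusted p = 0.00012).

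Of 10 tested genes of collagen breakdown, 7 rose and none fell (70% and 0%), with a median of 0.55, where 26.6% and 12% of all genes rose and fell and their median was 0.16. Mmp3, a secreted matrix metalloproteinase, averaged 102 ± 15.7 FPKM in LPS hearts and 5.09 ± 1.72 FPKM in Control hearts and rose by 4.11 (adjusted p = 2.2e-07). Mmp14, the membrane-bound collagenase, averaged 21.7 ± 3.80 FPKM in LPS hearts and 5.85 ± 1.19 FPKM in Control hearts and rose by 1.73 (adjusted p = 4.4e-06). Mmp8, the neutrophil collagenase, averaged 2.50 ± 0.65 FPKM in LPS hearts and 0.0625 ± 0.0374 FPKM in Control hearts (adjusted p = 8.4e-06). Mmp8 and Mmp9, both among the 7 that rose, reached at most 0.10 and 0.28 FPKM in Control hearts. Both passed the filter through the hearts given LPS alone, which fixed their direction, so they add no support to the count. Of 9 fibril-binding proteoglycans, 1 rose and 4 fell (11.1% and 44.4%, where 26.6% and 12% of all genes rose and fell), with a median of -0.65 beside 0.16 over all genes: Dcn (decorin) rose by 1.11 to 651 ± 49.5 FPKM in LPS hearts, against 304 ± 40.1 FPKM in Control hearts (adjusted p = 0.00016), whereas Fmod (fibromodulin) and Aspn (asporin) fell by 1.76 and 1.54 (adjusted p = 0.00033 and 0.0011). Of 5 tested collagen receptors none was called in limma or limma-voom, 1 had an unadjusted p under 0.05 (Mrc1, adjusted p = 0.053), and their median was 0.06.

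Among 19 genes of TGF-beta signalling, the main inducer of fibrillar collagen, 7 rose and 1 fell (36.8% and 5.26%, beside 26.6% and 12% of all genes), with a median of 0.31 beside 0.16 over all genes. The receptor Tgfbr2 averaged 28.4 ± 3.85 FPKM in LPS hearts and 9.17 ± 0.56 FPKM in Control hearts and rose by 1.52 (adjusted p = 3.1e-06), and the ligand Tgfb1 rose by 0.45 (adjusted p = 0.0024). Ltbp4, which binds latent TGF-beta in the matrix, averaged 22.9 ± 4.21 FPKM in LPS hearts and 68.2 ± 7.65 FPKM in Control hearts and fell by 1.55 (adjusted p = 9.6e-06). Of 16 hypoxia response genes, 5 rose and 4 fell (31.2% and 25.0%, beside 26.6% and 12% of all genes), with a median of 0.13 beside 0.16 over all genes. Hif1a, the HIF alpha subunit, averaged 54.7 ± 19.7 FPKM in LPS hearts and 14.1 ± 1.34 FPKM in Control hearts and rose by 1.82 (adjusted p = 4.2e-05), whereas Vegfa and the oxygen sensor Egln1 fell by 1.81 and 1.19 (adjusted p = 0.00022 and 6.3e-06). In LPS+XJDHT against LPS none of the 76 tested genes of these lists was called in limma or limma-voom, and 0 had an unadjusted p under 0.05.

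Markers of the cells that make collagen did not move as 1 block, and their counts stand beside 26.6% of all genes rising and 12% falling in LPS against Control. The 12 fibroblast markers summed to 909.8 to 1329 FPKM in LPS+XJDHT hearts, 1040.0 to 1205 FPKM in LPS hearts and 913 to 1127 FPKM in Control hearts; in LPS against Control, Pdgfra and Dcn rose and Gsn, Dpt, Fbln1, Pi16 and Clec3b fell. Of 6 tested activated fibroblast markers, Thbs4 rose and Postn, Comp and Cilp fell, with sums of 149.8 to 269 FPKM in LPS+XJDHT hearts, 124 to 206 FPKM in LPS hearts and 128 to 184 FPKM in Control hearts. Of 9 pericyte and smooth muscle markers none rose and Rgs5, Abcc9 and Myh11 fell, with sums of 123 to 153 FPKM in LPS+XJDHT hearts, 105 to 144 FPKM in LPS hearts and 216 to 241 FPKM in Control hearts. Rgs5 was the largest part of these sums, at 72.1 ± 13.6 FPKM in LPS hearts and 147 ± 1.86 FPKM in Control hearts. Of 9 endothelial markers Fabp4 rose and none fell, with sums of 817 to 1038 FPKM in LPS+XJDHT hearts, 759 to 1100.4 FPKM in LPS hearts and 606 to 707 FPKM in Control hearts. Fabp4 alone was most of these sums, at 734 ± 116 FPKM in LPS hearts and 471 ± 38.6 FPKM in Control hearts, and no other endothelial marker was called. All 4 tested neutrophil markers rose, with sums of 72.9 to 148 FPKM in LPS+XJDHT hearts, 76.1 to 115 FPKM in LPS hearts and 0.937 to 2.68 FPKM in Control hearts. With Control sums this low, these markers may have passed the filter through the hearts given LPS alone, which would fix their direction. Of 9 macrophage markers Cd68 rose, with sums of 146 to 249 FPKM in LPS+XJDHT hearts, 134 to 321 FPKM in LPS hearts and 130.5 to 194 FPKM in Control hearts. Of 9 cardiomyocyte markers 5 fell. Of the Schwann cell, epithelial and mesothelial markers, 6 were tested and none was called in limma or limma-voom, with 1 at an unadjusted p under 0.05; their lists and the chondrocyte list, of which Sox9 alone was listed, summed to at most 11.3 FPKM in any heart, and no adipocyte marker was listed. The part of these shifts in the collagen results was not tested.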

How the data were processed

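Per the labels, heart RNA was depleted of ribosomal RNA and sequenced in 12 libraries, 4 per group; the submitters' processing notes name mm10 and limma, with no role stated. Which aligner and counting tool were used is not given in the sources used here. Each deposited file holds 1 value per transcript. Their unit was read as FPKM, made by the authors: 99.0% to 99.3% of low values were whole multiples of 1 fragment, within 0.1 of a whole number. The Control and LPS files list 36293 transcripts and the LPS+XJDHT files 35802, and 24723 annotated transcripts in all 12 were summed into 12866 genes. Transcripts without an Ensembl identifier were not used. No column of values was left unused.

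Genes reaching 1 FPKM in 4 or more libraries entered the test, on log2(FPKM + 1), a scale that understates the change of low genes, with limma 3.58.1 in R 4.3.3: 1 fit over 12 libraries, intensity trend, two-sided, p-values Benjamini-Hochberg adjusted over 11509 genes, called under 0.05. The test was checked on simulated data. Intervals are limma's 95% intervals. Recovered fragments per gene had medians from 266 (Loxl4) to 99255 (Col4a1), apart from Col6a1. Values per library are given for called genes whose mean reached 5 FPKM in 1 group and for genes whose mean reached 50; of each pathway list, up to 3 genes with the smallest adjusted p are given. Genes, lists, rules and tests were chosen with earlier results of these data known, so no list is independent evidence. Promoters were matched by symbol to RefSeq (GRCm38.p6) for 46 of 61 genes. Alternatives changed the filter, pseudocount, scaling, transcripts summed, weights, test and libraries.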

Additional observations from a re-analysis of the deposited data

Results flagged for a closer look

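In 99 groups of 4 hearts (33 genes in 3 groups), 6 had 1 heart far from the other 3 by Dixon's test, which flags about 1 in 20 groups by chance. Bmp1 had 0.646 FPKM in LPS+XJDHT 1, below 9.82 to 10.4 FPKM in the other LPS+XJDHT hearts. Plod2 had 10.9 FPKM in LPS+XJDHT 2, above 2.93 to 3.88 FPKM in the others. Col6a1 had 19.0 FPKM in LPS+XJDHT 2 and was listed at 0 in the others. Col1a1 had 24.8 FPKM in LPS 2, below 38.3 to 38.7 FPKM in the other LPS hearts, and Plod1 had 6.03 FPKM there, below 17.4 to 19.7 FPKM. Loxl4 had 1.53 FPKM in LPS 1, above 0.989 to 1.06 FPKM in the other LPS hearts.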

How the results depend on the processing

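Of the 20 genes called in LPS against Control, 12 kept their call under every alternative run on them except the 2-fold rule, and of the 19 called in LPS+XJDHT against Control 16 did. Col4a4 could not be tested without any 1 Control heart or with a minimum of 5 FPKM. These counts include Col4a4 in both comparisons and Col23a1 in LPS+XJDHT against Control. Both genes passed the filter through 1 condition, which fixed their direction, so their kept calls add no support. In LPS+XJDHT against LPS the count of called genes was 0 in every setting. Asking for at least a 2-fold change left 4 genes higher and 1 lower in LPS against Control, and 6 higher and 1 lower in LPS+XJDHT against Control, since the rule is stricter by construction. Leaving out 1 heart at a time gave 10 to 14 genes higher and 4 to 6 lower in LPS against Control, 13 to 15 higher and 3 to 6 lower in LPS+XJDHT against Control (3 without Control 3 or Control 4), 7 to 13 transcripts higher in LPS against Control (7 without Control 3 or LPS 1), and 0 to 1 transcript higher in LPS+XJDHT against LPS (1 without LPS+XJDHT 1). Directions turned for Bmp1 (0.27) and, in LPS+XJDHT against Control, Col4a1 (-0.37) with protein-coding transcripts, Col16a1 (-0.55) with the transcripts of the Control and LPS libraries, and Loxl2 (-0.13) after median scaling; apart from the transcripts or scaling used, the cause was not tested. Leaving out 1 heart, uncalled differences in LPS against Control ran from -0.71 to 0.87 for Col6a1, -0.029 to 0.21 for Loxl2, -0.023 to 0.60 for Plod3 and -0.48 to 0.21 for Serpinh1. No paired analysis was possible because no mouse number occurs in more than 1 group. With 4 hearts a group, genes such as Bmp1, Plod3 and Col6a1 had intervals that hold a difference in either direction of the size seen for Crtap.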
